A study of Mus musculus with 24 samples.

Results

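The genes described here are 33 genes of glucose uptake, glycolysis, lactate production and lactate export in mouse splenic B cells, taken from a named list of symbols with no cutoff on measured values, out of 23234 gene names in each of 2 tables. They comprise 4 transporters of glucose (Slc2a1, Slc2a3) and of lactate (Slc16a1, Slc16a3), 20 genes for the steps from the hexokinases to pyruvate kinase and for the enzymes that make and degrade their activator (Pfkfb2, Pfkfb3, Pfkfb4), 2 lactate dehydrogenase subunits (Ldha, Ldhb), 3 pyruvate dehydrogenase kinases (Pdk1, Pdk2, Pdk3) and 4 genes of the pyruvate dehydrogenase complex (Pdha1, Pdhb, Dlat, Dld). Strand-specific RNA-seq was made from total RNA of B cells taken fresh from the spleens of C57BL/6 mice, either control or deficient in Tet2 and Tet3, enzymes that oxidise methylated cytosine in DNA. CD93- B cells (3 control and 3 deficient libraries) and CD93+ B cells (3 and 3) were analysed, CD93 being a surface protein of immature B cells that plasma cells can also carry. The deficient libraries are titled DKO in one population and KO in the other and appear as DKO in the plots. The alleles, any Cre driver, the age of the mice and whether the libraries come from separate animals are not given in the sources used here, so each p-value here reflects only the scatter among the libraries at hand, which may be technical.

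Glycolysis splits glucose into pyruvate with a net gain of ATP. Pyruvate either enters mitochondria through the pyruvate dehydrogenase complex, which pyruvate dehydrogenase kinases switch off by phosphorylation, or is reduced to lactate, which leaves the cell through monocarboxylate transporters. Resting B cells are known for low glucose use, and activated B cells for raising it when they grow and divide, with the transcription factors MYC and HIF-1 among the known activators of glycolytic genes.

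The values are FPKM, fragments scaled to transcript length and to the mapped fragments of the library, so levels of different genes can be set side by side, while the depth of the libraries is unknown. Summed FPKM ran from 342368 to 463987 in CD93- libraries. In CD93+ libraries the sum was 309359 in deficient replicate 3 and 523898 to 597968 in the other 5, and the upper quartile of tested genes was 15.4 FPKM in that replicate and 25.8 to 30.05 FPKM in the others. Results are therefore given with the authors' scaling and after bringing each library to a common upper quartile of tested genes (rescaled). With the authors' scaling Tet2 and Tet3 themselves were not called in either population (adjusted p from 0.222 to 0.731). In CD93+ cells Tet3 stood at 12.1, 13.01 and 14.1 FPKM in the control and 9.92, 7.67 and 3.84 FPKM in the deficient libraries, lower in every deficient library. Tet3 in CD93- cells and Tet2 in both populations overlapped between groups. Since the deleted exons are not given, these values do not check the labels. Cd93 stood at 27.98 to 59.9 FPKM in CD93+ and 3.32 to 4.65 FPKM in CD93- libraries, and Cd79a, a signalling chain of the B cell receptor, stood at 572 to 1589 FPKM over all 12 libraries, lowest in CD93+ deficient replicate 3. By Xist and Ddx3y the 6 CD93- libraries were male. In CD93+ cells control replicates 1 and 2 were male, and control replicate 3 and the 3 deficient libraries female, so sex and genotype are partly confounded there.

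In CD93- B cells deficient in Tet2 and Tet3, most enzymes of the glycolytic trunk rose, together with Ldha, the lactate exporter Slc16a1 and the kinase gene Pdk3. Gapdh and Tpi1 rose most among the 30 members tested, to 2.48 and 2.42 times their control means. The glucose transporter Slc2a3 and the enolase Eno3, the isozyme typical of muscle, fell, and no gene of the pyruvate dehydrogenase complex passed the test. Of the 30 members that passed the filter on low values (at least 1 FPKM in at least 3 libraries), 13 rose and 2 fell at an adjusted p under 0.05 (limma, Benjamini-Hochberg over all genes), where 18.7% of the 10960 genes tested rose and 2.79% fell. The median log2 change was 0.30 over these 30 members and 0.11 over all tested genes. After rescaling the same 13 rose and the same 2 were among 5 that fell, with Pdk2, Pfkfb2 and Pfkfb4 lower as well, where 17.1% of all genes rose and 23.8% fell; the medians became 0.08 and -0.08. All 15 called members were above 1 FPKM in all 6 libraries. Slc16a3, Hk3 and Eno2 did not pass the filter. In bulk RNA, more cells of a type and more RNA per cell cannot be told apart.

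**Figure D1:**
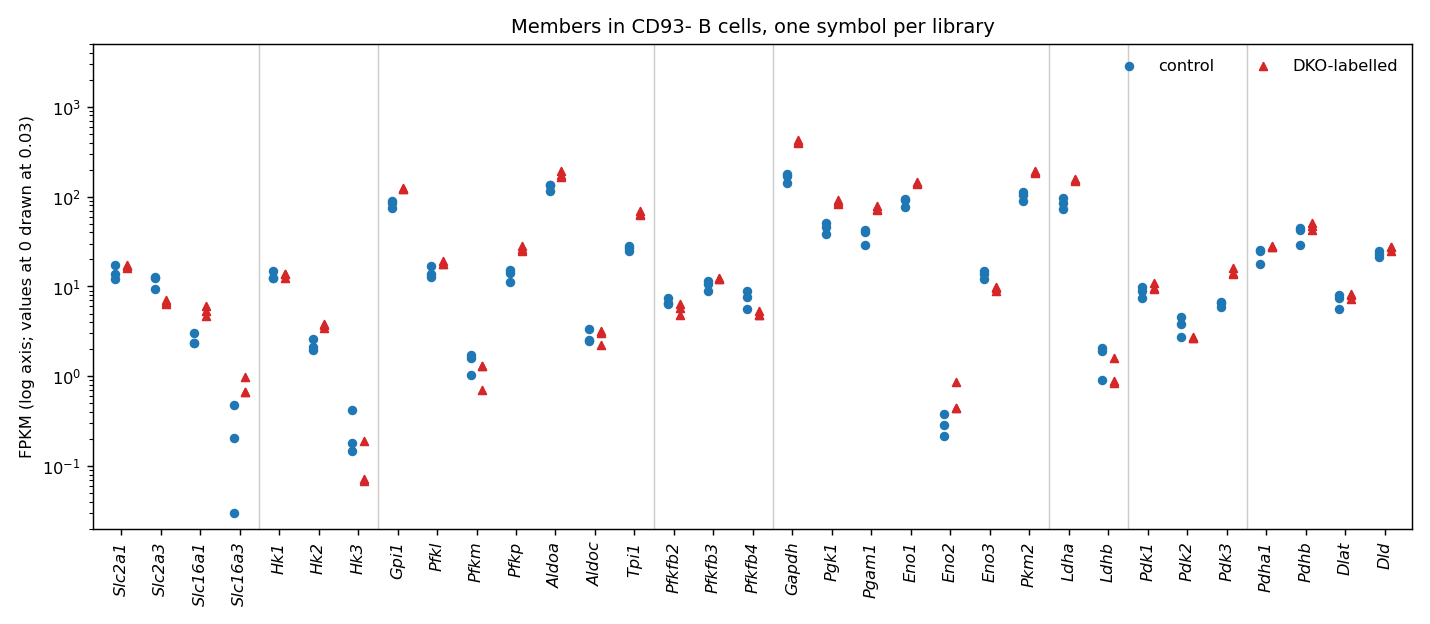
FPKM of the 33 members (log axis) in each CD93- library, control as circles and deficient (DKO) as triangles, ordered by role from transporters to the pyruvate dehydrogenase complex. Gapdh stands at 141 to 180.4 FPKM in control and 395 to 423 FPKM in deficient libraries, while Slc2a3 and Eno3 lie lower in the deficient libraries.

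To set the upstream letters of genes that rose beside those of one that fell, the stretches before 5 transcription starts are shown: 4 members that rose (Gapdh, Pgam1, Pdk3 and Ldha) and Eno3, which fell. The sequences are from RefSeq, build GRCm38.p6, each the 250 bases before the listed start on the gene's strand. Entries were found for 32 of the 33 members, all but Slc2a3, with Pkm2 under its current symbol Pkm. Capitals mark the core of the HIF binding motif, ACGTG or GCGTG, on either strand (CACGT or CACGC when read on the other). The windows lie at chr6:125165774-125166023 (minus strand) for Gapdh, chr19:41911621-41911870 (plus strand) for Pgam1, chrX:93832151-93832400 (minus strand) for Pdk3, chr7:46845554-46845803 (plus strand) for the first of 2 listed starts of Ldha, and chr11:70656926-70657175 (plus strand) for Eno3.
Gapdh: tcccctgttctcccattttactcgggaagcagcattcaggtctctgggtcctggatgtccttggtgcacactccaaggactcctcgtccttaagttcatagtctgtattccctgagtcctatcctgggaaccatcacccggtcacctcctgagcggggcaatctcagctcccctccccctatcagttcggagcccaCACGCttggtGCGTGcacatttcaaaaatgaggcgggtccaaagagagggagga
Pgam1: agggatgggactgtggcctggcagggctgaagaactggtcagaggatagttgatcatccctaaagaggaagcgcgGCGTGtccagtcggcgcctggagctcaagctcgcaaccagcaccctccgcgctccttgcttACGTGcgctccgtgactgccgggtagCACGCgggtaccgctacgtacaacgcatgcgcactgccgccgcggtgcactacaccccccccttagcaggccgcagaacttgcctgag
Pdk3: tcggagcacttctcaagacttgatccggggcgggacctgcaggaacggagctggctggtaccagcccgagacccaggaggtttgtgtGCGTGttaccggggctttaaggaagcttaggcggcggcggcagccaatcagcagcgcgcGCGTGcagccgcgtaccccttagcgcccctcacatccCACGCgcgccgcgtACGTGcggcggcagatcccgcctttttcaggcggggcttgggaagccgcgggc
Ldha: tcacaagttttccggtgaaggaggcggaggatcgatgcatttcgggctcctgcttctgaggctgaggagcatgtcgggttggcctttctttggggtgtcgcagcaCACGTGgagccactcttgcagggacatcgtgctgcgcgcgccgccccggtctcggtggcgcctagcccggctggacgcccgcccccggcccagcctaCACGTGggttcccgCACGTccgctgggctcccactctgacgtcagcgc
Eno3: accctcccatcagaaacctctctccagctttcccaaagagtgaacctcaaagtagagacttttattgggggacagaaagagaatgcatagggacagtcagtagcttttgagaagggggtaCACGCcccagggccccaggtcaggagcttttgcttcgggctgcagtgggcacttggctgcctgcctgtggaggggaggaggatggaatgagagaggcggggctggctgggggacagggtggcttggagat

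Gapdh and Eno3 hold GCGTG only, on 2 and 1 occasions, Pgam1 and Pdk3 hold both forms, and Ldha holds ACGTG alone, mostly within 2 copies of the palindrome CACGTG, the E-box to which MYC can bind. ACGTG occurred in 20 of the 48 listed member starts (41.7%) and in 16.6% of all 32851 promoters of the same length. GCGTG occurred in 52.1% of member starts and 28.2% of all promoters, and either form in 77.1% and 38.6%. CACGTG, which contains ACGTG, occurred in 12.5% and 6.02%, and the GC box GGGCGG in 47.9% and 32.7%. Member promoters were also richer in CpG, with a median of 13.5 CpG dinucleotides against 6 over all promoters, and both HIF forms contain a CpG. The 5 printed windows ranged from 3 CpG in Eno3 to 29 in Pdk3. Among members, 11 of the 13 genes that rose in CD93- cells and 16 of the other 19 held either form. The genes that rose without either form were Gpi1 and Tpi1, whose windows are not printed. The second listed start of Ldha, also not printed, held 1 GCGTG and no ACGTG. These are matches of letters and no measure of binding.

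Among the transporters of CD93- cells, Slc2a1, the basal glucose transporter, stood at 11.96, 17.5 and 13.7 FPKM in the control and 16.1, 17.1 and 17.1 FPKM in the deficient libraries. Those groups overlap, and its log2 change of 0.22 ± 0.15 (SE) was not called (adjusted p = 0.333). Slc2a3, a high-affinity glucose transporter, stood at 9.39, 12.3 and 12.9 FPKM in the control and 6.67, 6.41 and 7.04 FPKM in the deficient libraries. Every deficient library lay below every control library, and Slc2a3 fell by 0.69 on the log2 scale (adjusted p = 0.00464). Slc16a1, the transporter that carries lactate and pyruvate with a proton, stood at 2.35, 2.32 and 3.07 FPKM in the control and 4.65, 5.29 and 6.14 FPKM in the deficient libraries. It was low in all 6 libraries and still higher in every deficient one, with a log2 change of 0.83 ± 0.15 (adjusted p = 0.00208). On the log2(FPKM + 1) scale used here, changes of low genes such as Slc16a1 are understated: the ratio of its means was 2.08. Slc16a3, the exporter of strongly glycolytic cells, was at or under 0.986 FPKM in every library and was listed at 0 in control replicate 1. It was higher in every deficient library, and was not called when fitted with no filter (limma, adjusted p = 0.0844).

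Of the hexokinases, which trap glucose in the cell, Hk1 made up most of the transcript and was not called, at 13.1 ± 1.35 FPKM in control and 13.3 ± 0.779 FPKM in deficient libraries (SD, n = 3; adjusted p = 0.945). Hk2, the inducible form, stood at 1.98, 2.1004 and 2.57 FPKM in the control and 3.696, 3.85 and 3.45 FPKM in the deficient libraries. All 3 deficient libraries lay above all controls, and Hk2 rose with a log2 change of 0.54 ± 0.14 (adjusted p = 0.0174). Leaving out deficient replicate 1, 2 or 3 ended that call (adjusted p = 0.0683, 0.0788 and 0.0511), as did no filter (0.0611) and rescaling with the replicate block (0.0719). Hk3 stayed at or under 0.421 FPKM.

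The enzymes from hexose phosphate to triose phosphate rose in 4 of 7 members. Tpi1, which interconverts the triose phosphates, stood at 25.1, 28.5 and 27.04 FPKM in the control and 63.6, 62.2 and 69.1 FPKM in the deficient libraries. This is the widest separation among the upper enzymes, with a log2 change of 1.24 ± 0.12 (adjusted p = 2.08e-05). Pfkp, the phosphofructokinase typical of platelets, stood at 11.3, 15.2 and 14.3 FPKM in the control and 25.9, 24.7 and 27.9 FPKM in the deficient libraries (log2 change 0.90 ± 0.14, adjusted p = 0.000655). The other phosphofructokinases were not called: Pfkl, the liver type, averaged 14.4 ± 2.08 FPKM in control and 18.4 ± 0.811 FPKM in deficient libraries, without overlap (adjusted p = 0.103, or 0.0295 without control replicate 2), and Pfkm, the muscle type, lay between 0.7102 and 1.74 FPKM in all libraries. Gpi1, the isomerase of the first hexose phosphates, stood at 74.3, 89.04 and 85.7 FPKM in the control and 120.2, 122 and 125 FPKM in the deficient libraries. It rose by 0.56 on the log2 scale (adjusted p = 0.00769, or 0.0511 without deficient replicate 3). Aldoa, the main aldolase, averaged 129 ± 11.4 FPKM in control and 177 ± 12.7 FPKM in deficient libraries and rose by 0.46 (adjusted p = 0.0261). Its call was lost in 6 of 16 alternatives, among them the omission of control replicate 3 (adjusted p = 0.06002) or of deficient replicate 1, 2 or 3 (0.0599, 0.105 and 0.175). Aldoc, the brain form, stayed between 2.26 and 3.34 FPKM with overlapping groups.

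The Pfkfb enzymes make and degrade the bisphosphate that activates phosphofructokinase, and none of the 3 was called with the authors' scaling. Pfkfb3, the form with the strongest kinase activity, stood at 8.88, 10.6 and 11.6 FPKM in the control and 12.1, 12.3 and 12.5 FPKM in the deficient libraries; the groups do not overlap, but the log2 change of 0.23 was not called (adjusted p = 0.259). Pfkfb4 stood at 5.59, 8.85 and 7.60 FPKM in the control and 5.398, 4.82 and 4.76 FPKM in the deficient libraries, lower in every deficient library. Its log2 change was -0.46 (adjusted p = 0.0609), and it was called after rescaling (-0.65, adjusted p = 0.00244) and without control replicate 1 (adjusted p = 0.007096). Pfkfb2, at 6.77 ± 0.516 FPKM in control and 5.63 ± 0.810 FPKM in deficient libraries, was called lower after rescaling (adjusted p = 0.283 before and 0.0268 after).

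The lower part of the pathway, which yields ATP, rose in 5 of the 6 members tested. Gapdh, which oxidises glyceraldehyde phosphate, stood at 141, 180.4 and 171 FPKM in the control and 395, 401 and 423 FPKM in the deficient libraries. It was the most abundant member in every library and rose by 1.31 ± 0.14 on the log2 scale (adjusted p = 3.4e-05). Pgk1, the first ATP-forming step, stood at 38.7, 51.2 and 46.02 FPKM in the control and 83.5, 87.6 and 90.6 FPKM in the deficient libraries (log2 change 0.94 ± 0.14, adjusted p = 0.0004). Pgam1, the mutase that follows, stood at 29.3, 40.9 and 42.1 FPKM in the control and 72.6, 71.6 and 79.3 FPKM in the deficient libraries (log2 change 0.99 ± 0.15, adjusted p = 0.000612). For both genes the lowest deficient library was well above the highest control library. Eno1, the ubiquitous enolase, stood at 76.96, 93.9 and 92.4 FPKM in the control and 143, 139 and 147 FPKM in the deficient libraries and rose by 0.70 (adjusted p = 0.00218). Pkm2, pyruvate kinase, whose symbol in these tables does not separate the M1 and M2 isoforms, stood at 90.1, 113 and 104 FPKM in the control and 184, 189 and 195 FPKM in the deficient libraries and rose by 0.89 (adjusted p = 0.0005). Eno3 went the other way, at 11.97, 13.8 and 14.9 FPKM in the control and 9.88, 9.52 and 8.94 FPKM in the deficient libraries, and fell by 0.48 (adjusted p = 0.0219). That call was lost without control replicate 3 (adjusted p = 0.105) or without deficient replicate 1, 2 or 3 (0.0568, 0.0782 and 0.115). Eno2, the neuronal enolase, was under 1 FPKM throughout. Several of these genes have near-identical processed pseudogenes in the mouse genome (Gapdh, Eno1, Aldoa, Pgk1, Pgam1, Tpi1, Pkm2, Ldha), so how their reads were divided is uncertain.

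At the branch from pyruvate, Ldha, the lactate dehydrogenase subunit favouring lactate, stood at 73.5, 96.96 and 84.1 FPKM in the control and 151, 153 and 156 FPKM in the deficient libraries. The deficient libraries lay within 151 to 156 FPKM, clear of the controls, and the log2 change was 0.85 ± 0.14 (adjusted p = 0.000789). Ldhb, the heart subunit, lay between 0.8501 and 2.06 FPKM with overlapping groups (adjusted p = 0.353). Of the kinases that inhibit pyruvate dehydrogenase, Pdk3 stood at 5.95, 6.78 and 6.53 FPKM in the control and 14.1, 13.9 and 16.3 FPKM in the deficient libraries and rose by 1.08 ± 0.13 (adjusted p = 9.48e-05). Pdk1 averaged 8.77 ± 1.31 FPKM in control and 9.92 ± 0.792 FPKM in deficient libraries and was not called (adjusted p = 0.461). Pdk2 stood at 3.85, 4.62 and 2.77 FPKM in the control and 2.64, 2.71 and 2.68 FPKM in the deficient libraries, with every deficient library lower, and was called after rescaling (log2 change -0.52, adjusted p = 0.0416) but not before (-0.35, 0.161). Of the complex itself, the E1 subunit genes Pdha1 and Pdhb, the E2 gene Dlat and the E3 gene Dld had log2 changes of 0.30, 0.30, 0.15 and 0.21, and none was called (adjusted p from 0.189 to 0.517).

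Markers of cell division and of plasma cells moved with these genes in CD93- cells. Of 15 proliferation genes 14 rose, and their summed FPKM was 131 to 181 in control and 409 to 446 in deficient libraries. Of 7 tested plasma cell markers 5 rose (sum 75.7 to 105 against 343 to 379 FPKM, over 8 markers), of 6 red cell markers 4 rose (42.3 to 60.4 against 170.2 to 198 FPKM), and of 7 T cell markers 3 rose (26.9 to 43.3 against 46.6 to 50.2 FPKM). Of 4 tested macrophage and monocyte markers 2 rose (sum of 9 markers 20.5 to 26.5 against 24.1 to 26.7 FPKM). Of 6 NK cell markers 1 rose, and of 5 dendritic cell markers 1 rose and 1 fell. Over all tested genes 18.7% rose and 2.79% fell. After rescaling 2 red cell markers were higher and 2 dendritic cell markers lower. The rescaled counts of higher proliferation, plasma cell and T cell markers were the same as before. No neutrophil marker was called under either scaling, and no platelet marker passed the filter. Of the B cell markers, Cd79a and Pax5 were not called with the authors' scaling and were lower after rescaling (log2 changes -0.23 and -0.37). After rescaling 2 of the 6 B cell markers had positive log2 changes, of at most 0.03. Over all tested genes 17.1% rose and 23.8% fell after rescaling. No defining marker of these lists was at 0 in all libraries. Their part in the glycolytic result was not tested.

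In CD93+ B cells no member was called with the authors' scaling, and 11 members, most of them enzymes of the glycolytic trunk, rose after the libraries were rescaled. With the authors' scaling, 0 of 31 tested members rose or fell in limma, and 0 passed an unadjusted p under 0.05, where 1.67% of 11250 tested genes were called higher and 1.54% lower. The median log2 change was 0.03 over those members and -0.22 over all genes. After rescaling, 11 members rose and none fell at the adjusted threshold (13 higher and 3 lower at an unadjusted p under 0.05), where 11.4% of all genes rose and 9.34% fell, with medians of 0.20 and -0.01. They were Gpi1, Pfkl, Aldoa, Tpi1, Gapdh, Pgk1, Pgam1, Eno1, Pkm2, Ldha and Pdk3, and 10 of the 11, all but Pfkl, also rose in CD93- cells. Hk2, Pfkp and Slc16a1 were called higher in CD93- cells and not here. Without deficient replicate 3 and with the authors' scaling, Gapdh, Pdk3 and Tpi1 rose (3 members, where 4.38% of genes rose and 1.22% fell). Quantile normalization gave 8 higher members and 0 lower ones (9.8% of all genes higher and 10% lower), and rescaling with sex as a term gave 4, Gapdh, Pfkm, Pkm2 and Tpi1, where 3.54% of genes rose and 1.53% fell. Aldoc and Eno2 did not pass the filter.

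**Figure D2:**
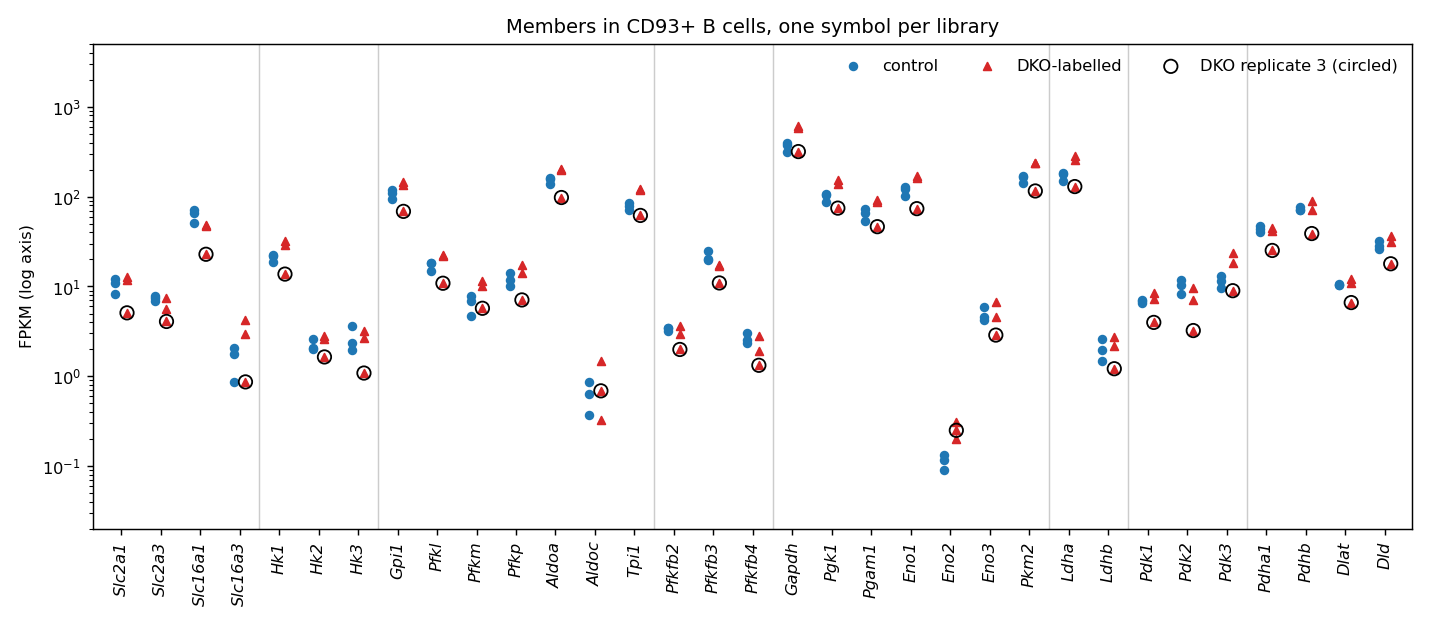
FPKM of the 33 members (log axis) in each CD93+ library with the authors' scaling, control as circles, deficient (DKO) as triangles, and deficient replicate 3 circled. The circled library lies below both other deficient libraries for nearly every member, as for Gapdh at 317 against 579 and 605 FPKM.

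With the authors' scaling Gapdh stood at 372, 315 and 394 FPKM in the control and 605, 579 and 317 FPKM in the deficient libraries. Replicates 1 and 2 of the deficient group lay above all controls and replicate 3 among them, and the log2 change of 0.42 ± 0.44 was not called (adjusted p = 0.747). Rescaled, the values were 346, 321 and 345 FPKM in the control and 535, 533 and 543 FPKM in the deficient libraries, without overlap, and the log2 change was 0.67 ± 0.06 (adjusted p = 0.0017). Rescaled Tpi1 stood at 73.7, 72.6 and 73.5 FPKM in the control and 107, 108 and 106 FPKM in the deficient libraries. The spread within each group was narrow, and Tpi1 rose by 0.54 ± 0.05 (adjusted p = 0.00186). Rescaled Ldha stood at 167, 153 and 159.5 FPKM in the control and 224, 257 and 221 FPKM in the deficient libraries and rose by 0.55 ± 0.08 (adjusted p = 0.00713). Rescaled Pkm2 stood at 153, 145 and 150.2 FPKM in the control and 208, 219.6 and 198 FPKM in the deficient libraries and rose by 0.48 ± 0.06 (adjusted p = 0.00533). Gapdh, Tpi1, Ldha, Pkm2 and Pgk1 were called in the rescaled fits with any 1 of the 6 libraries left out. The other rises were Pgk1 (0.48), Pgam1 (0.42), Eno1 (0.37), Aldoa (0.30), Gpi1 (0.28) and Pfkl (0.27), with adjusted p from 0.00614 to 0.0451. The number of rescaled calls was 11 without control replicate 3, 9 without deficient replicate 3, 7 without deficient replicate 1, and 6 without control replicate 1, control replicate 2 or deficient replicate 2; among these 6 fits, Slc16a1 and Pdk2 were each called lower once, without control replicate 3 and without deficient replicate 2.

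Pdk3 lies on the X chromosome, as do Pgk1 and Pdha1. Rescaled, Pdk3 stood at 12.1, 9.78 and 10.02 FPKM in the control and 20.9, 16.9 and 15.4 FPKM in the deficient libraries. Every deficient library was above every control, the female control replicate 3 included, and Pdk3 rose by 0.68 ± 0.13 (adjusted p = 0.0176, and 0.0907 with sex as a term). For Pgk1 and Ldha the adjusted p with sex as a term was 0.0577 and 0.0582, with log2 changes of 0.45 and 0.55, close to those without it. Pdk2 stood at 10.4, 8.31 and 11.7 FPKM in the control and 7.03, 9.59 and 3.23 FPKM in the deficient libraries with the authors' scaling, and was not called before or after rescaling (adjusted p = 0.458 and 0.111).

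Slc16a1 was abundant in CD93+ cells, at 70.4, 65.4 and 50.98 FPKM in the control and 48.5, 47.3 and 22.8 FPKM in the deficient libraries. Every deficient library lay below every control library, but the log2 change of -0.70 ± 0.40 was not called (adjusted p = 0.491), nor was the rescaled one of -0.46 ± 0.16 (0.0809). With sex as a term the rescaled log2 change of Slc16a1 was -0.09 (adjusted p = 0.585), an estimate that rests on control replicate 3 as the only female control, whose value was the lowest of the controls. Pfkfb3 was the other tested member whose groups did not overlap with the authors' scaling, at 19.7, 20.3 and 24.9 FPKM in the control and 17.1, 17.2 and 10.9 FPKM in the deficient libraries (adjusted p = 0.615, and 0.109 rescaled). Among tested members these 2 lower and 0 higher ones compare with 19% of all tested genes lower without overlap and 2.94% higher. Eno2, below the filter, was higher without overlap in both populations, at 0.117, 0.133 and 0.0899 FPKM in the control and 0.307, 0.202 and 0.251 FPKM in the deficient libraries of CD93+ cells. Fitted with no filter, Eno2 was not called in either population (limma, adjusted p = 0.248 in CD93- and 0.764 in CD93+ cells). After rescaling 13 tested members lay higher and 1 lower without overlap, against 20.9% and 22% of all genes. In CD93- cells, 16 tested members lay higher and 4 lower, against 31.5% and 7.43% of all genes, and 14 and 5 after rescaling, against 21.4% and 33.3%. The remaining CD93+ members were not called under either scaling: Slc2a1 (10.5 ± 2.03 FPKM in control and 9.92 ± 4.21 FPKM in deficient libraries), Slc2a3 (7.399 ± 0.469 FPKM in control and 5.72 ± 1.696 FPKM in deficient libraries), Hk1 (21.1 ± 1.87 FPKM in control and 24.98 ± 9.83 FPKM in deficient libraries), Slc16a3, Hk2, Hk3, Pfkm, Pfkp, Pfkfb2, Pfkfb4, Eno3, Ldhb, Pdk1, Pdha1, Pdhb, Dlat and Dld, with log2 changes between -0.35 and 0.43 with the authors' scaling.

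**Figure D3:**
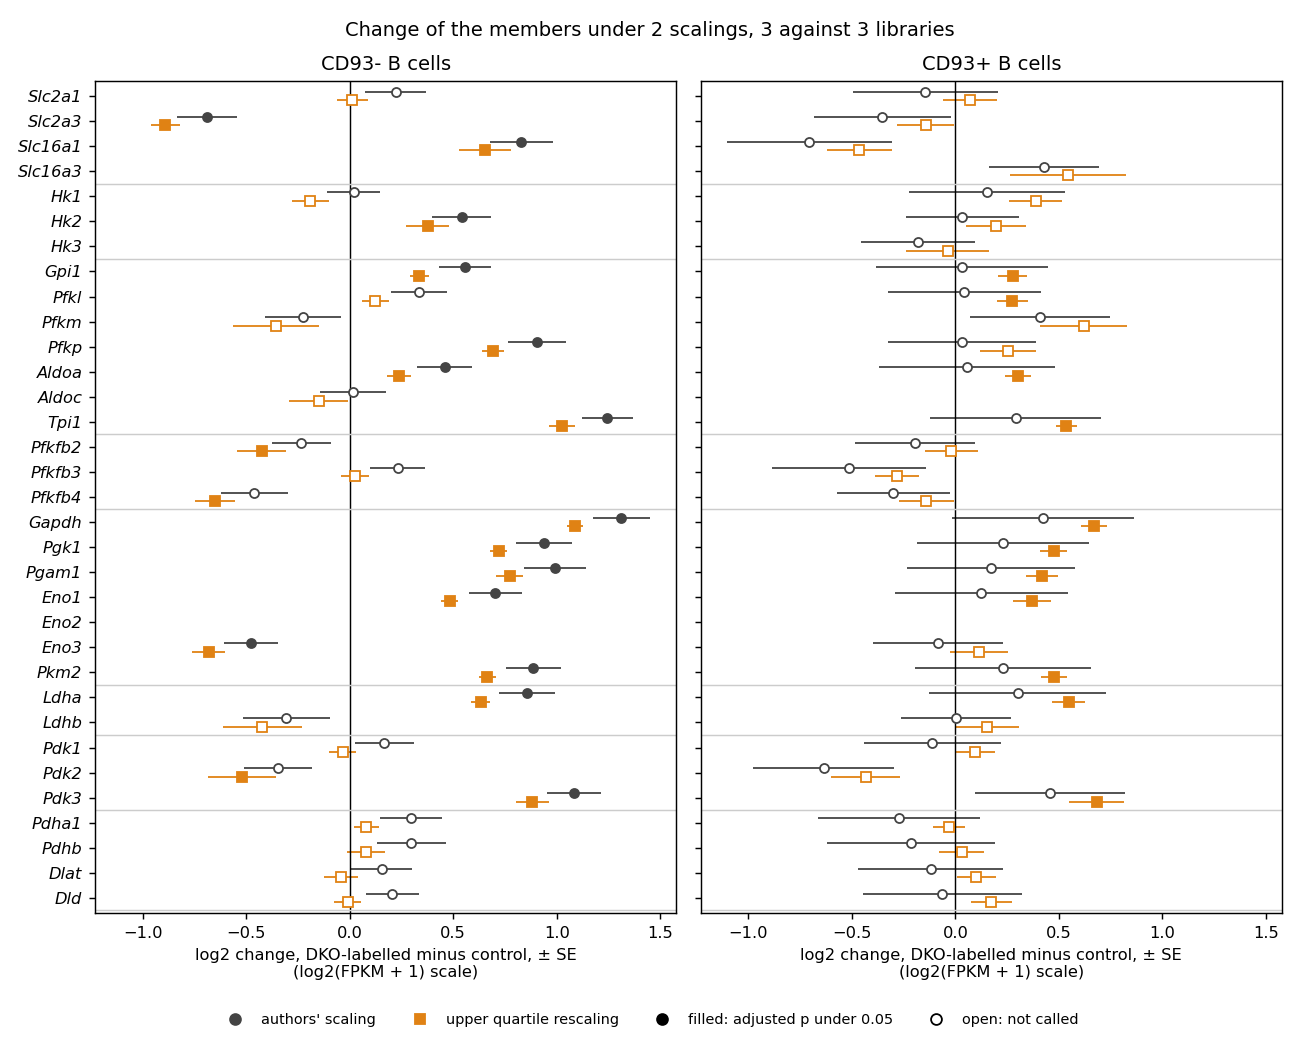
Log2 change of each member, deficient minus control on the log2(FPKM + 1) scale, with its SE, in CD93- (left) and CD93+ (right) cells, circles for the authors' scaling and squares after upper quartile rescaling, filled where the adjusted p is under 0.05. In CD93- cells 13 members are higher under both scalings, and in CD93+ cells 0 members are called before and 11 after rescaling, with shorter error bars.

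Other cell markers also differed in the CD93+ libraries. Over all tested genes 1.67% rose and 1.54% fell with the authors' scaling, and 11.4% rose and 9.34% fell after rescaling. Of 7 tested plasma cell markers 5 rose (sum of 8 markers 153 to 210.3 FPKM in control and 887 to 1536 FPKM in deficient libraries), and of 8 red cell markers 7 were called lower (15075 to 64367 against 3300 to 15674 FPKM; 0 after rescaling). Of 7 neutrophil markers 1 fell (sum 1599 to 2229 against 444 to 1400 FPKM; 5 lower after rescaling), and of 5 tested NK cell markers 2 rose (sum of 6 markers 15.7 to 32.9 against 24.1 to 74.2 FPKM). Of 15 proliferation genes none was called with the authors' scaling (1149 to 1317 against 885 to 1425 FPKM; 1 higher and 0 lower at an unadjusted p under 0.05) and 3 rose after rescaling. Rescaled, 5 plasma cell markers were higher and 1 lower, and 3 NK cell markers were higher. The red cell sum of control replicate 3, 15075 FPKM, lay within the range of the deficient libraries. No T cell, macrophage and monocyte, platelet or dendritic cell marker was called under either scaling. Among B cell markers Cd79a, Cd22 and Pax5 were not called with the authors' scaling and were lower after rescaling (log2 changes -0.36, -0.39 and -0.58), where the 11 members were higher. No list had a defining marker at 0 in all libraries, and the part of these cells in the members' values was not tested.

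A measure that does not depend on library scaling is the members' share of all summed FPKM. In CD93- cells the 33 members took 0.250, 0.274 and 0.280% in the control and 0.386, 0.370 and 0.377% in the deficient libraries (0.268 ± 0.0160% and 0.378 ± 0.00785%, SD, n = 3). In CD93+ cells they took 0.289, 0.286 and 0.317% against 0.392, 0.404 and 0.382% (0.297 ± 0.0168% and 0.392 ± 0.0109%). In both populations every deficient library, CD93+ replicate 3 included, lay above every control library. The 9 most abundant members held 76.7 to 84.4% of the members' FPKM in CD93- and 77.8 to 83.1% in CD93+ libraries, so the share mostly reflects Gapdh, Aldoa, Pkm2, Ldha, Eno1, Gpi1, Pgk1 and Tpi1 with Pgam1 or Pdhb. Globin transcripts took 16.3, 15.8 and 4.21% of summed FPKM in the CD93+ controls and 3.49, 4.09 and 1.60% in the deficient libraries. With globins, Rn45s and small RNAs left out of the sum, the CD93+ shares were 0.371, 0.372 and 0.358% against 0.436, 0.443 and 0.426%, and the difference was 0.0682 in place of 0.0952 percentage points.

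**Figure D4:**
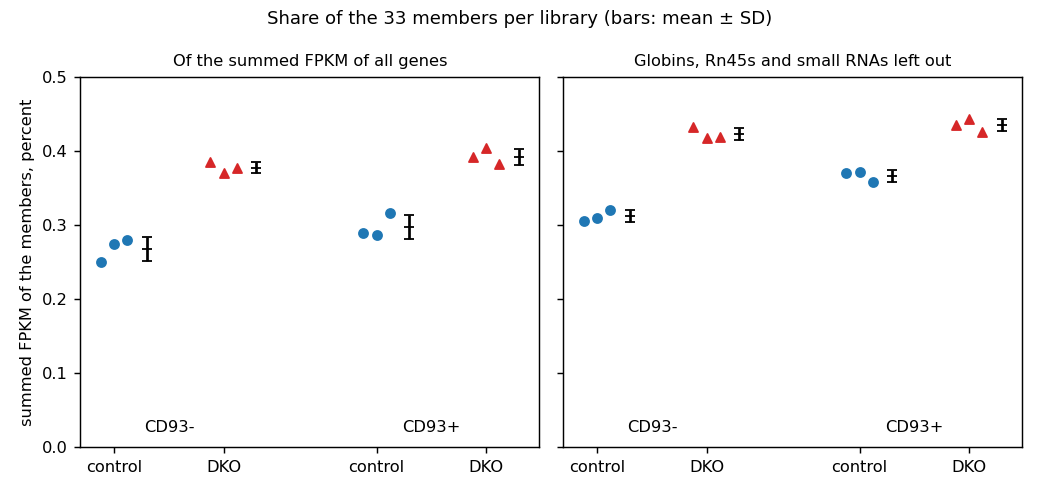
Summed FPKM of the 33 members as percent of the summed FPKM of all genes (left) and of all genes without globins, Rn45s and small RNAs (right), 1 symbol per library, with mean and SD beside each group. The deficient (DKO) libraries lie above the controls in both populations and with both denominators.

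The makeup of isozymes was followed as each gene's percent of its paralog set within a library, which likewise does not depend on scaling. Of 19 such shares, 14 did not overlap between groups in CD93- and 5 in CD93+ cells, with no like count made over all genes. The shares of a set add up to the whole, so a share can move through its paralogs alone. In CD93- cells the Pfkl share went from 48.9 to 40.2% while its mean went from 14.4 to 18.4 FPKM. The Pdk1 share went from 46.2 to 36.3% while its mean went from 8.77 to 9.92 FPKM. With 3 against 3 libraries the exact two-sided permutation test cannot go below p = 0.10, which became 0.20 when adjusted over the 38 shares. In CD93- cells Pdk3 made up 34.7, 31.7 and 35.8% in the control and 54.03, 53.1 and 54.6% in the deficient libraries of Pdk1, Pdk2 and Pdk3 together. In CD93+ cells it made up 43.4, 38.7 and 37.8% in the control and 60.4, 52.3 and 55.4% in the deficient libraries. The share of Pdk2 was 19.7 ± 3.98% in control and 9.83 ± 0.708% in deficient libraries of CD93- cells, and 35.7 ± 2.62% in control and 21.8 ± 4.89% in deficient libraries of CD93+ cells. Pdk2 and Pdk3 were the only shares without overlap in the same direction in both populations.

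In CD93- cells the share of Slc2a1 in the glucose transporters was 55.4 ± 3.61% in control and 71.4 ± 1.11% in deficient libraries. Slc2a3 was called lower there and Slc2a1 itself was not called. The share of Hk2 in the hexokinases was 14.3 ± 2.48% in control and 21.5 ± 1.85% in deficient libraries, and that of Pfkp in the phosphofructokinases 46.05 ± 1.97% in control and 57.3 ± 0.894% in deficient libraries (for Pfkl 48.9 ± 1.98% in control and 40.2 ± 0.425% in deficient libraries). Pfkfb3 held 42.4 ± 2.72% in control and 53.7 ± 2.67% in deficient libraries of its set, and Eno3 held 13.4 ± 0.533% in control and 6.18 ± 0.425% in deficient libraries of the enolases. None of these was separated in CD93+ cells. There, besides the kinases, 3 shares did not overlap: Hk1 made up 81.1 ± 1.65% in control and 84.1 ± 1.203% in deficient libraries of the hexokinases, Slc16a1 97.5 ± 1.08% in control and 94.1 ± 2.18% in deficient libraries of the lactate transporters, and Pfkfb2 12.3 ± 1.82% in control and 14.3 ± 1.09% in deficient libraries of its set.

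**Figure D5:**
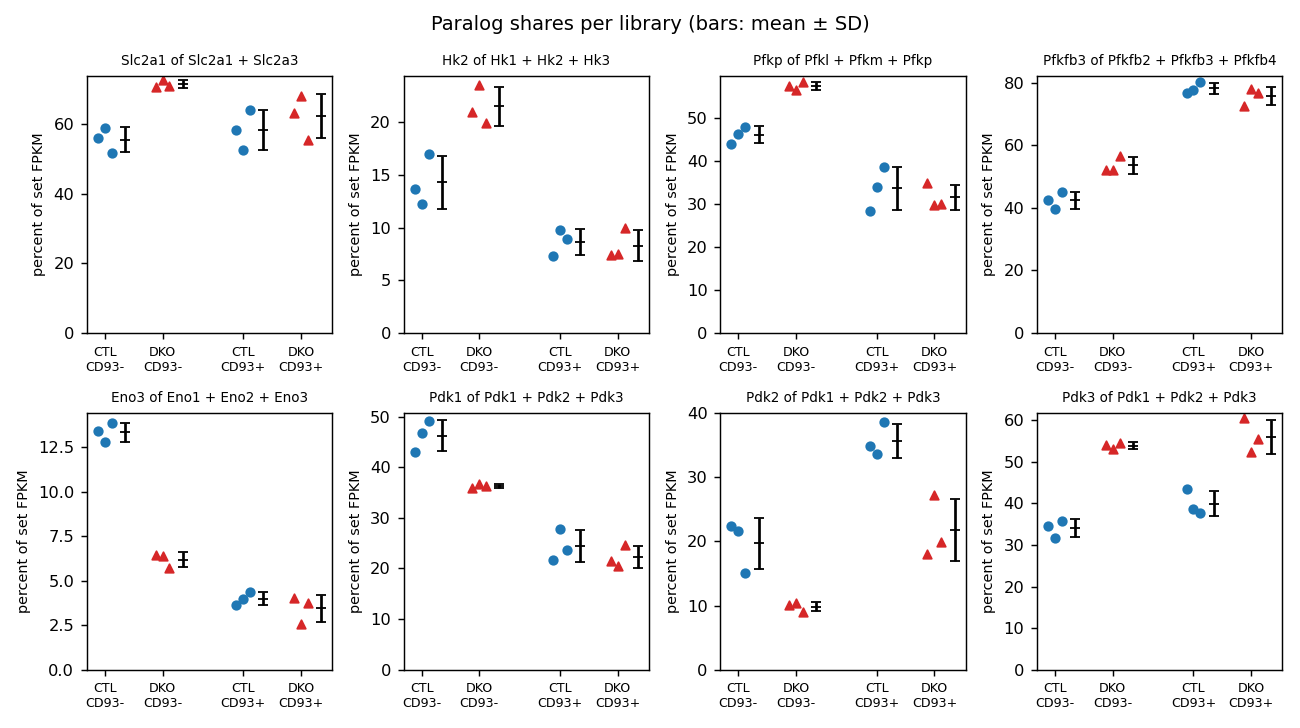
Share of 8 members in the summed FPKM of their paralog set, in percent, for control (CTL, circles) and deficient (DKO, triangles) libraries of each population, with mean and SD. Pdk3 is higher and Pdk2 lower in the deficient libraries of both populations, while Slc2a1, Hk2, Pfkp, Pfkfb3, Eno3 and Pdk1 are separated in CD93- cells and overlap in CD93+ cells.

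Across the 29 members tested in both populations, Pearson's r between the log2 changes in CD93- and in CD93+ cells was 0.52 (0.56 rescaled), and over the 10446 genes tested in both it was 0.39 (0.41). These are descriptions across genes, which are not independent and share their libraries. The populations come from tables scaled separately, and the difference of an effect between them was not tested.

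Neighbouring pathways in CD93- cells were followed through lists that exclude the members. Over all tested genes 18.7% rose and 2.79% fell with the authors' scaling, and 17.1% rose and 23.8% fell after rescaling. Of 10 tested genes of the pentose phosphate pathway, which branches from glucose phosphate to make NADPH and ribose, 8 rose and 0 fell (median log2 change 0.58; 8 and 1, H6pd, after rescaling), led by Rpia (26.01 ± 2.49 to 44.2 ± 5.21 FPKM), Tkt (41.3 ± 5.32 to 66.98 ± 1.63 FPKM) and Pgls (62.8 ± 18.1 to 96.7 ± 10.2 FPKM). Of 8 genes of serine synthesis from phosphoglycerate and the one-carbon cycle, 5 rose and 0 fell (median 0.55; 5 and 0 after rescaling), led by Psat1 (9.53 ± 1.83 to 23.9 ± 1.31 FPKM, adjusted p = 9.04e-05), Phgdh (32.1 ± 5.43 to 70.6 ± 5.55 FPKM) and Mthfd2 (6.48 ± 1.85 to 12.5 ± 0.222 FPKM). Of 18 genes of the TCA cycle 10 rose and 0 fell (median 0.42; 8 and 1, Dlst, after rescaling), led by Idh3a (9.22 ± 1.51 to 16.03 ± 0.397 FPKM), Mdh2 (60.8 ± 9.42 to 102 ± 5.13 FPKM) and Fh1 (42.4 ± 5.21 to 64.2 ± 1.51 FPKM). Of 13 other transporters and paralogs 4 rose and 1 fell: Slc2a6, a lysosomal hexose transporter, rose (6.35 ± 0.898 to 11.5 ± 1.54 FPKM), as did Bsg, the chaperone of Slc16a1 (43.2 ± 7.71 to 64.4 ± 3.97 FPKM), and Bpgm, while Slc16a7, a pyruvate transporter, fell (2.45 ± 0.629 to 0.900 ± 0.0636 FPKM). After rescaling 3 rose and 2 fell, the second being Slc2a8, and Bpgm was not called (adjusted p = 0.158). Of 6 genes of pyruvate entry 1 rose, no larger a share than that of all tested genes. It was Brp44, a subunit of the mitochondrial pyruvate carrier (15.7 ± 1.93 to 27.3 ± 2.15 FPKM). After rescaling 1 rose and 2 fell (Brp44l and Pdp2).

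Of 17 tested regulators in CD93- cells 2 rose and 0 fell, no larger a share than the 18.7% of all tested genes that rose. Hif1a stood at 15.6, 20.7 and 19.1 FPKM in the control and 26.3, 27.2 and 26.5 FPKM in the deficient libraries (log2 change 0.52, adjusted p = 0.0163), and Myc at 24.7, 28.5 and 29.1 FPKM in the control and 39.1, 40.2 and 39.8 FPKM in the deficient libraries (0.52, adjusted p = 0.0102). Neither overlapped between groups. Txnip, an arrestin that limits glucose uptake, stood at 135, 188 and 167 FPKM in the control and 119.8, 123 and 119 FPKM in the deficient libraries. All deficient libraries were lower, with a log2 change of -0.42 that was not called (adjusted p = 0.0531) and one of -0.65 after rescaling that was (0.000134). Rescaled, 2 regulators were higher and 7 lower, where 17.1% of all tested genes rose and 23.8% fell. The lower regulators were led by Txnip, Vhl and Hif1an. Of 12 tested HIF-1 targets outside glycolysis 2 rose and 0 fell, likewise a share below that of all tested genes. They were Mif, a cytokine (108 ± 8.35 to 231 ± 18.4 FPKM), and Ddit4, an inhibitor of mTOR (23.6 ± 4.27 to 33.6 ± 0.884 FPKM), with 2 higher and 2 lower (Ndrg1 and Bnip3l) after rescaling.

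In CD93+ cells with the authors' scaling, 1 gene of these lists was called: Bpgm, which makes the red cell metabolite bisphosphoglycerate, stood at 198, 181 and 44.05 FPKM in the control and 39.9, 45.2 and 11.2 FPKM in the deficient libraries and was called lower, though control replicate 3 lay among the deficient libraries (log2 change -2.05, adjusted p = 3.2e-05). It was not called after rescaling (adjusted p = 0.0862). Over all tested genes 1.67% rose and 1.54% fell with the authors' scaling, and 11.4% rose and 9.34% fell after rescaling. After rescaling, 4 of 10 tested pentose phosphate genes were higher (G6pdx, log2 change 0.41, Tkt, Prps1 and Rpia) and H6pd, the form in the endoplasmic reticulum, lower (-0.45). Rescaled, 5 of 8 genes of the serine and one-carbon list were higher, led by Phgdh (0.80, adjusted p = 0.00224), Mthfd1 (0.79) and Shmt1 (0.44). Of 18 genes of the TCA cycle 4 were higher, led by Mdh2 (0.44), Idh3a and Sdhc. Minpp1 was the 1 gene of 12 tested other transporters and paralogs that was higher, no larger a share than that of all tested genes. Among 19 tested regulators Myc was higher (0.45, adjusted p = 0.0327) and Txnip (-0.80, 0.00217) and Mlxip lower. Neither share was far above that of all tested genes. Hif1a stood at 15.3, 13.03 and 15.6 FPKM in the control and 18.6, 17.4 and 7.88 FPKM in the deficient libraries and was not called under either scaling (adjusted p = 0.956 and 0.325). Of the 14 other HIF-1 targets tested, Adm, Mif and Ero1l were higher and Ndrg1 and Kdm3a lower after rescaling.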

How the data were processed

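Total RNA was purified on RNeasy micro columns and turned into SureSelect strand-specific libraries, per the labels' protocols. The submitters' processing notes name the mouse build mm9 and the tools TopHat2 2.0.8, Bowtie2 2.1.0 and Cufflinks 2.1.1. The authors deposited FPKM per gene and library; the annotation, the handling of multiply mapped reads and any filter are not given in the sources used here. FPKM holds no counts, so depth is unknown and no counting interval is given. Of 24 samples in 8 groups, 12 libraries in 4 groups were used and 12 samples were not analysed here. Beside the CD93+ values, 6 further columns repeated the CD93+ columns cell for cell and were not used, and 25 gene names in date form could not be read.

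Groups came from sample titles and genotype labels. Genes reaching 1 FPKM in 3 or more libraries of a population were fitted on log2(FPKM + 1) with limma 3.58.1 in R 4.3.3 (mean-variance trend, two-sided, Benjamini-Hochberg over all tested genes, threshold 0.05), for each population separately. Rescaling divided each library by its upper quartile of tested genes relative to the mean over libraries. Alternatives were pseudocounts of 0.1 and 5, no filter or one of 5 FPKM, upper quartile and quantile scaling, sample quality weights, no trend, a block on the replicate number, leaving out each library, and in CD93+ cells sex read from Xist and Ddx3y; combinations with rescaling, leaving out libraries after rescaling and the share without globins were added after seeing the data. Paralog shares were tested with exact permutation (scipy 1.17.1). The fit was also run on simulated data, with noise drawn separately for each gene and library. Those data held no difference in scale between libraries, so that run cannot check calls under the low scale of CD93+ deficient replicate 3. Same-numbered libraries deviated with correlations of -0.14 to 0.17, so the numbers were not taken as pairs. All members were accounted for; of each list, called genes were named, at most 3 per direction, with Hif1a, Myc, Txnip, Tet2 and Tet3 always. Members, 8 pathway lists and 9 cell type lists are named lists of symbols that were drawn up with earlier results of these data known. The result for 1 marker is not reported here. Promoters are from RefSeq (GRCm38.p6), not the build of the files.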

Additional observations from a re-analysis of the deposited data

Results flagged for a closer look

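The values of Slc16a1 lay in opposite directions in the 2 populations, though only those in CD93- cells passed the test. The ratio of its mean FPKM, deficient over control, was 2.08 in CD93- cells, where all deficient libraries were higher, and 0.635 in CD93+ cells, where all were lower (0.709 after rescaling). With sex as a term, the rescaled log2 change of Slc16a1 in CD93+ cells was -0.09 (adjusted p = 0.585), against -0.46 without it. With the authors' scaling the Pfkfb3 ratio was 1.18 in CD93- and 0.697 in CD93+ cells, without overlap in either. Pfkfb3 was called in neither population (limma, adjusted p = 0.259 and 0.615). With that scaling 31.5% of all tested genes lay higher without overlap in CD93- cells, and 19% lay lower in CD93+ cells. After rescaling the Pfkfb3 groups overlapped in both populations. The share of Hk1 among the hexokinases was 2.97 percentage points higher in deficient CD93+ libraries and changed by -6.31 percentage points in deficient CD93- libraries, without overlap in either. These differences between populations were not tested.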

How the results depend on the processing

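In CD93- cells 2351 genes were called; upper quartile rescaling gave 4478 (1869 higher, 2609 lower), quantile normalization 4198, rescaling with the replicate block 3689, and leaving out single libraries 1368 to 3247, the fewest without deficient replicate 3 and 1539 without deficient replicate 2. Without control replicate 1 the genes called lower went from 306 to 1109. The 15 called members numbered 11 to 18 over all alternatives, and 14 to 19 when single libraries were left out after rescaling. In CD93+ cells 361 genes were called; no filter gave 16, a filter of 5 FPKM 168, rescaling 2331, quantile normalization 2230, no trend 188, quality weights 783, sex as a term 127, sex with rescaling 570, and rescaling with the replicate block 898. Leaving out single CD93+ libraries gave 139 to 623 (139 without control replicate 1, 157 without control replicate 2, 202 without deficient replicate 2, 623 without deficient replicate 3). CD93+ members called were 0, and 11 with rescaling, 8 with quantile normalization, 4 with sex and rescaling, 6 with rescaling and the replicate block, and 0 to 3 when single libraries were left out (3 without deficient replicate 3). The 11 rescaled calls became 6 to 11 when single libraries were left out. The CD93+ member share difference of 0.0952 became 0.0682 percentage points without globins. With the replicate block alone, 2874 genes and 16 members were called in CD93- and 237 genes and 0 members in CD93+ cells; the libraries share only a number, and same-numbered libraries did not all correlate best with each other. Over single members and alternatives, 443 of 471 values in CD93- and 519 of 551 in CD93+ cells kept their side of the threshold. Over both populations 16 calls were lost and 44 gained, and no gene changed sign where either fit called it. Uncalled values changed sign 21 times in 5 CD93- genes and 70 times in 19 CD93+ genes. With sex as a term, CD93+ log2 changes of Gpi1, Pfkl, Aldoa, Pgam1 and Eno1 were -0.12, -0.04, -0.04, -0.03 and -0.02. With rescaling added they were 0.23, 0.29, 0.31, 0.31 and 0.33, and none was called in either fit. The estimation of quality weights did not fully converge. The cause of these differences was not tested. With 3 libraries a group and FPKM without counts, small changes and genes near 1 FPKM are poorly resolved.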

Other observations

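The control libraries of the populations also differed in isozyme makeup, read as shares within a library from tables that were made separately, with no test between them. In control CD93- cells Pfkm made up 5.07 ± 1.85% of phosphofructokinase FPKM, and in control CD93+ cells 18.3 ± 5.22% (SD, n = 3 each). Pfkfb3 made up 42.4 ± 2.72% and 78.2 ± 1.78% of its set, and Pdk1 46.2 ± 3.11% and 24.4 ± 3.11% of the pyruvate dehydrogenase kinases, where Pdk2 made up 19.7 ± 3.98% and 35.7 ± 2.62%. Eno3 made up 13.4 ± 0.533% and 3.995 ± 0.351% of the enolases, and Hk2 14.3 ± 2.48% and 8.67 ± 1.24% of the hexokinases. For Pfkm, Pfkfb3, Pdk1, Pdk2, Eno3 and Hk2 the control libraries of one population did not overlap with those of the other. The same held for Hk3, Pfkp, Pfkfb2, Pfkfb4, Aldoa, Eno1, Eno2 and Pdk3, but not for Slc2a1, Slc16a1, Hk1, Pfkl and Ldha. Shares of a set add up to the whole, so these separations are not independent of each other. No like count was made over all genes, so they are not shown to be particular to these members. The CD93- controls were all male, while the CD93+ controls held both sexes and more globin transcript.

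Of 4 tested genes of gluconeogenesis and glycerol phosphate, 0 were called in CD93- cells with the authors' scaling (limma), and 0 passed an unadjusted p under 0.05. After rescaling 3 were lower, where 23.8% of all tested genes fell. They were Gpd2, the mitochondrial glycerol phosphate dehydrogenase (log2 change -0.47, adjusted p = 0.00302), Pck2 (-0.22) and Gpd1l (-0.20). In CD93+ cells Gpd1l stood at 96.2, 91.1 and 107 FPKM in the control and 73.8, 73.5 and 38.3 FPKM in the deficient libraries, lower in every deficient library, and was called after rescaling (log2 change -0.47, adjusted p = 0.00342) but not before (0.493).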
